A study of Mus musculus with 6 samples.

Results

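The cytosolic ribosomal protein genes were taken by symbol: Rpl or Rps with a number and at most 1 letter, Rplp0 to Rplp2, and Rpsa. This gave 81 of the 19458 genes listed, 31 for the small and 50 for the large subunit, and 78 of them had enough counts to be tested. The profiles came from the gastrocnemius, the large calf muscle, of C57BL/6 mice aged 9 weeks. The knockout group held 3 libraries of genotype tmem182-/-, and the comparison group held 3 libraries of wild-type mice. Tmem182 encodes a membrane protein of muscle, and the labels name neither the allele nor a tissue-specific driver for its loss. The series asks how muscle transcripts differ without Tmem182, and the ribosomal protein genes are described here within that contrast.

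Each ribosome is built from a small subunit, which reads the mRNA, and a large subunit, which joins amino acids, and most of their proteins are present in a single copy per ribosome. Their mRNAs are transcribed from separate genes, are among the most abundant in most cells, and usually begin with a run of pyrimidines (the TOP motif) through which mTOR signalling sets their translation. Striated muscle is known for a tissue-specific form of 1 large-subunit protein: Rpl3l, a close relative of the general Rpl3, is made in skeletal muscle and heart in place of much of the Rpl3 found elsewhere.

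Total expected counts ran from 16212341 to 18672630 per library. Tmem182 itself was at 6.23, 4.30 and 2.17 FPKM in knockout libraries 1, 2 and 3 and at 147, 121 and 121 FPKM in the wild-type libraries, so the targeted transcript was low wherever the genotype field says knockout. FPKM are fragments scaled by transcript length and by the library's mapped fragments, and allow levels of different genes to be compared. The summed level of 7 fast myofibre markers was 84167 to 116022 FPKM in the knockout and 108388 to 123423 in wild type. Knockout library 1 stood apart: its 10 most abundant genes took 22.01% of the counts, against 28.2% to 31.9% in the other 5 libraries, and the fast markers were lowest in it, 7 of 7. In the same library all 7 macrophage and leukocyte markers, 5 of 5 Schwann cell, 6 of 6 endothelial, 5 of 5 adipocyte and 7 of 7 slow myofibre markers were at their highest. The labels do not state that the libraries are from different mice, and the p-values therefore cover the spread between these samples, part of which may be technical.

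Rpl3l and Rpl3 are encoded on different chromosomes. In GRCm38, Rpl3l (Entrez 66211) spans positions 24727820 to 24736143 of chromosome 17, plus strand, and its start is 5891 bases beyond the end of Rps2, the most abundant member. Rpl3 (Entrez 27367) spans positions 80077791 to 80091868 of chromosome 15, minus strand. Each has 10 coding exons, 9 of them of equal length; the last holds 42 coding bases in Rpl3 and 54 in Rpl3l. Over 1206 aligned coding bases the genes were 74.3% identical, the longest identical stretch was 22 bases, and no stretch of 50 bases was shared. The coding sequence of exon 2 is shown because it makes plain how reads of the pair can be told apart. Capitals mark the 47 of 193 bases that differ between the genes.
Rpl3 coding exon 2, chr15:80082390-80082582, minus strand of GRCm38: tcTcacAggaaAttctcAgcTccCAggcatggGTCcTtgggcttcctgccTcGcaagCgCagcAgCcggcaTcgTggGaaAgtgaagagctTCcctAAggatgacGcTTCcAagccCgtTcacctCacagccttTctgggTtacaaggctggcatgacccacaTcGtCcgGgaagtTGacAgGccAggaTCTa
Rpl3l coding exon 2, chr17:24728317-24728509, plus strand of GRCm38: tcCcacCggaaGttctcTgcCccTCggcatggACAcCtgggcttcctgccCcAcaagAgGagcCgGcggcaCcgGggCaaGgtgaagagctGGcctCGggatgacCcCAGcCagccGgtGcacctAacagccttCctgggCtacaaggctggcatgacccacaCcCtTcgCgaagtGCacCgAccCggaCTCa

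Rpl3l was the main form of the pair in all 6 libraries and did not pass the test between genotypes. Its level was 373, 320.3 and 347 FPKM in knockout libraries 1, 2 and 3 and 404, 336 and 372 FPKM in wild-type libraries 1, 2 and 3. The groups overlapped, with the knockout at 347 ± 26.2 FPKM and wild type at 371 ± 34.0 FPKM (SD, n = 3 each). Among the 81 members Rpl3l ranked 4 by mean FPKM and 3 by counts, so by FPKM only Rps2, Rplp0 and Rplp1 were above this muscle form. Its log2 fold change of knockout over wild type was -0.16 (SE 0.12, 95% interval -0.44 to 0.12), and its unadjusted p of 0.223 by edgeR was the smallest of all 78 members, with an adjusted p of 0.994. Under the alternative fits and with each library left out the value stayed negative, between -0.22 and -0.09.

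Rpl3, whose product folds toward the peptidyl transferase centre of the large subunit, gave 40.2, 20.8 and 24.5 FPKM in knockout libraries 1 to 3 and 27.6, 21.9 and 21.5 FPKM in wild-type libraries 1 to 3. Only knockout library 1 stood above the wild-type range; knockout library 2 was the lowest of all 6. The knockout mean was 28.5 ± 10.3 FPKM and the wild-type mean 23.6 ± 3.39 FPKM (SD, n = 3 each). Its log2 fold change of 0.17 had an SE of 0.16 and a 95% interval of -0.21 to 0.56 (edgeR unadjusted p = 0.332, adjusted p = 0.994), and without knockout library 1 it was -0.02. Rpl3 rested on 509 to 884 expected counts per library, and Rpl3l on 7956 to 9844. The GENCODE transcripts of Rpl3 share 67.1% of their 50-base stretches with other annotated genes, mainly processed copies such as Rpl3-ps1, whereas Rpl3l shares none. Neither gene shares such a stretch with another gene listed in the deposited tables (0% each).

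The ratio of Rpl3 to Rpl3l was 0.108, 0.0648 and 0.0704 in knockout libraries 1, 2 and 3 and 0.0682, 0.0653 and 0.0577 in the wild-type libraries. Rpl3l thus exceeded Rpl3 by 9.27-fold in knockout library 1 and by 14.2-fold to 17.3-fold in the other 5 libraries. Rpl3 made up 9.73%, 6.09% and 6.58% of the pair's summed FPKM in the knockout and 6.38%, 6.13% and 5.45% in wild type. The log2 ratio averaged -3.66 ± 0.39 for knockout libraries and -3.98 ± 0.13 for wild-type libraries (SD, n = 3 each), a difference of 0.31. The two-sided exact permutation test over the 6 libraries gave p = 0.3, where 3 against 3 libraries cannot go below 0.1. Without knockout library 1 the difference was 0.09. Summed Schwann cell markers were 302, 48.6 and 86.3 in knockout libraries 1 to 3 and 198, 19.7 and 37.6 FPKM in wild-type libraries 1 to 3, and summed macrophage and leukocyte markers were 45.4, 13.4 and 19.3 against 18.3, 13.7 and 14.04 FPKM. Both sums were thus highest in the library with the highest Rpl3 ratio, as were those of slow myofibre, endothelial, adipocyte and erythroid markers. The sums of fast myofibre, satellite cell, fibroblast and heart muscle markers were highest in wild-type libraries. The part of these cells in the ratio was not tested. In a bulk sample fewer cells of a type and less RNA per cell cannot be told apart.

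**Figure D1:**
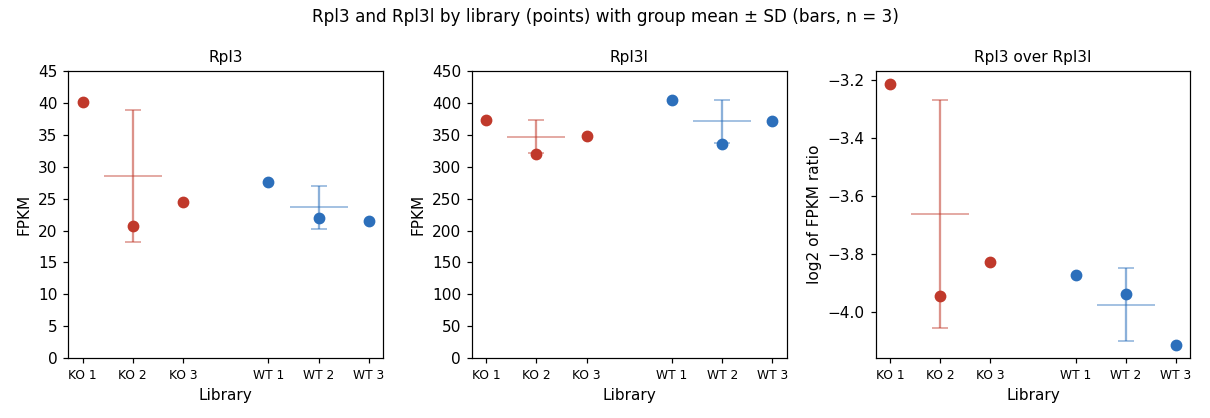
Rpl3 (left, FPKM), Rpl3l (middle, FPKM) and the log2 of their FPKM ratio (right) in each library, red for knockout and blue for wild type; horizontal bars and whiskers are group means and SD (n = 3). Rpl3l lies between 320.3 and 404 FPKM with overlapping groups, and the ratio of knockout library 1 stands above the other 5.

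Across the members no gene passed the test. By edgeR, 0 of 78 tested members had an adjusted p under 0.05, beside 0.00783% of the 12774 genes tested, which is Tmem182 alone. At an unadjusted p under 0.05 there were 0 members as well, beside 3.55% of all genes, and DESeq2 called 0 members beside 0.047% of all genes, which is 6 genes. Member log2 fold changes ran from -0.16 for Rpl3l to 0.19 for Rps6, with a median of -0.03 beside 0.00 over all genes tested. They were above 0 for 28 members and below 0 for 50, and this split followed the scaling: with library totals in place of TMM factors it was 54 above and 24 below, and without knockout library 1 it was 51 above and 27 below. The 10 small-subunit and 18 large-subunit members above 0 came from 31 and 47 tested, with medians of -0.04 and -0.03.

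The intervals were narrow. The 95% interval lay within 0.5 either side of 0 on the log2 scale for 76 of 78 members, the exceptions being Rpl3 and Rps6, and within 1 for all 78. The lowest bound was -0.46 and the highest was 0.61, so a change of 2-fold in either direction is outside each member's own interval. Within groups, the SD of TMM-scaled log2 CPM (counts scaled by the library's total times its TMM factor) had a median of 0.13 over the members, 0.20 over all genes tested and 0.16 over the 8600 other genes at least as abundant as the lowest member. That member was Rps6, at a mean of 2.60 log2 CPM, and the next lowest was Rpl39 at 4.03. The 8600 genes are therefore not matched to the members in abundance. Rps19, a small-subunit protein needed for 18S rRNA maturation, varied least at 0.05, followed by Rps2 and Rpsa, the laminin receptor homologue, at 0.05 and 0.06. Rps20, Rpl3 and Rps27l varied most, at 0.25, 0.24 and 0.22. With library totals only, a scale added after the data were seen, the median was 0.09 over the members and 0.24 over all genes, and the order changed. Rps19, Rps2 and Rpsa were at 0.14 each, at ranks 73, 74 and 71 of 78 from the smallest. Rpl6 was lowest at 0.04, and Rpl3 was highest at 0.37.

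**Figure D2:**
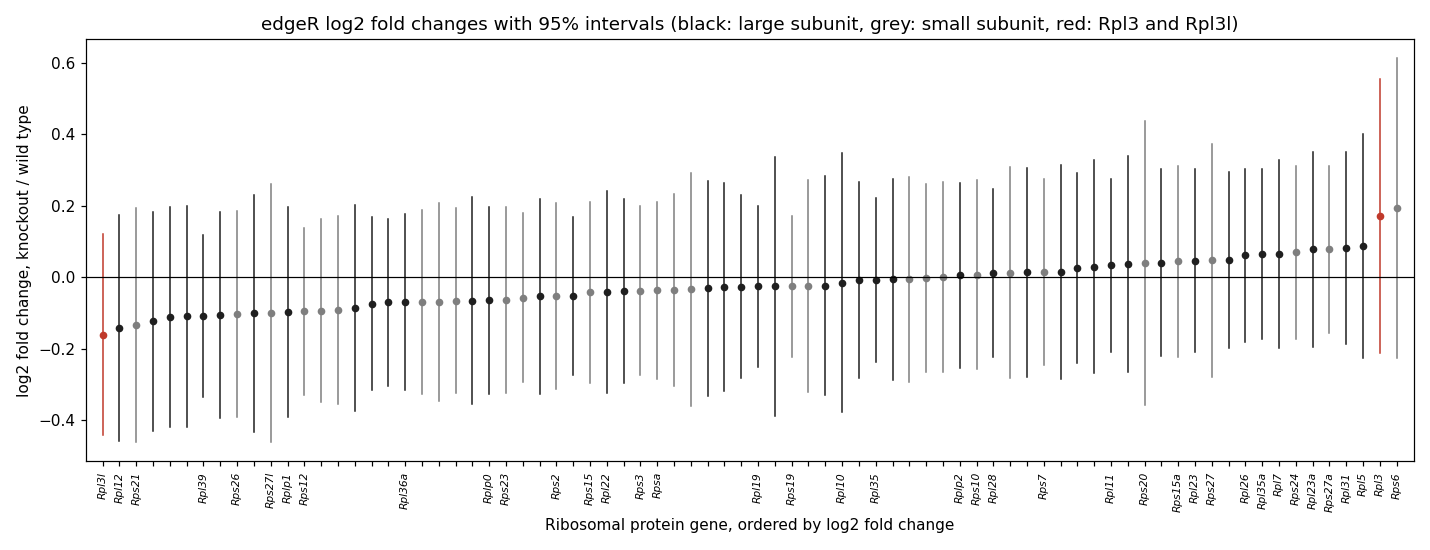
The edgeR log2 fold change (knockout over wild type) of each of the 78 tested ribosomal protein genes, ordered by value, with its 95% interval and with the genes described in the text named on the axis; black marks large-subunit, grey small-subunit genes, and red Rpl3 and Rpl3l. Every interval spans 0, and the points run from -0.16 for Rpl3l to 0.19 for Rps6.

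In TMM-scaled log2 CPM the 3 knockout and 3 wild-type libraries overlapped for all 78 members, so 0 had separate groups, beside 9.18% of all genes (4.67% with the knockout higher and 4.51% with it lower). On the deposited FPKM scale 5 of 78 had separate groups, 6.41% beside 7.55% of all genes. All 5 were higher in the knockout, beside 5.86% of all genes higher and 1.7% lower. Rpl5, which carries the 5S rRNA into the large subunit, was at 152, 151 and 164 FPKM across the knockout libraries and 146, 133 and 145 FPKM across those of wild type. Rps27a, made as a fusion with ubiquitin, was at 103, 88.0 and 96.2 FPKM against 87.3, 87.7 and 85.3 FPKM, so its closest libraries nearly touched. The other three were Rpl23a, Rps24 and Rpl26, and they too were separate on the FPKM scale only. These shares are near or under those of all genes.

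Levels spanned a wide range. Over the tested members the mean FPKM differed by 137-fold between the highest and the lowest, with a median of 166 FPKM; 7 members were at 300 or above, 54 between 100 and 300, and 17 below 100. Rps2, a protein of the mRNA entry channel, was highest at 698, 539 and 557 FPKM for knockout and 598, 581 and 587 FPKM for wild-type libraries, with the knockout values on both sides of the wild-type ones. Rplp0 and Rplp1, the anchor and a flexible arm of the stalk that recruits translation factors, followed with means of 427 and 404 FPKM, ahead of Rpl3l. The lowest of those tested was Rps6, the small-subunit protein phosphorylated by S6 kinase downstream of mTOR. It was at 5.85, 4.99 and 3.40 in knockout libraries 1 to 3 and 4.51, 3.71 and 3.55 FPKM in wild-type libraries 1 to 3, from 84.1 to 131 expected counts per library. Its log2 fold change was 0.19 (SE 0.18, edgeR unadjusted p = 0.315, adjusted p = 0.994), and the libraries of the 2 groups interleaved.

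Several of the lowest members have transcript models that are long or shared with other genes. For Rps6, 84.6% of the 50-base stretches of its transcript also occur in other annotated genes, but 0% occur in another gene of the deposited tables. For Rps15a, 14.5 FPKM on average, the deposited counts and FPKM imply a transcript length of 5188 bases, beside a median of 678 over the tested members; for Rps20 at 23.5 FPKM and Rpl22 at 25.3 FPKM the implied lengths were 3468 and 2202 bases. Rps15a ranked 77 by FPKM and 57 by counts, and Rps20 ranked 76 and 55. The implied length of Rpl3l was 1381 bases and that of Rpl3 was 1363, so lengths within that pair were nearly equal. Of the 80 members with a GENCODE gene, 77 share at least one 50-base stretch with another annotated gene and 26 share 50% or more, while 37 share one with another gene of the deposited tables; Rpl3l and Rpl39l are among the 3 that share none. Which copies the authors' index held is unknown here, so levels of members with such copies are less certain.

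**Figure D3:**
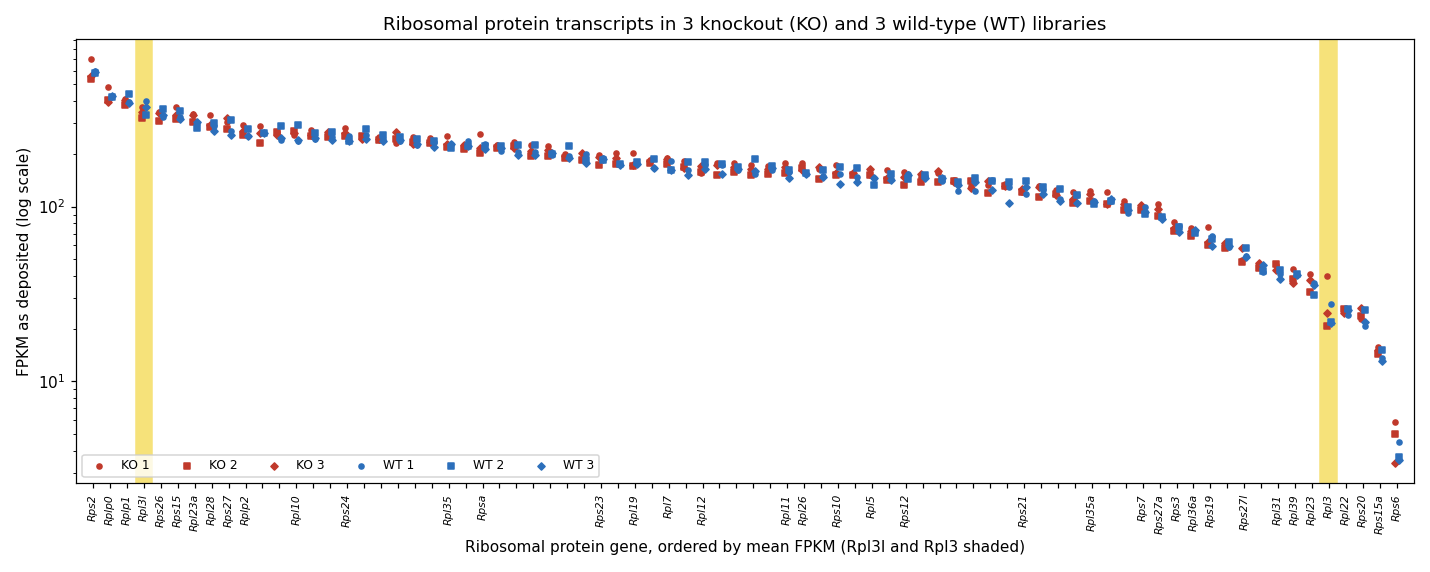
FPKM as deposited (log scale) of the 78 tested ribosomal protein genes in each library, ordered by mean, with the genes described in the text named on the axis; knockout libraries are red, wild-type libraries blue, and marker shapes give the library number. Rpl3l (shaded, left) stands at rank 4 and Rpl3 (shaded, right) at rank 74, and most genes lie between 100 and 300 FPKM.

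The 3 members that were not tested had next to no counts. Rpl10l and Rpl39l, the testis-enriched relatives of Rpl10 and Rpl39, were listed at 0 in all 6 libraries, and Rpl32l was at 0.11 FPKM in knockout library 3 and at 0 elsewhere. Rpl10 and Rpl39, the general forms, had knockout means of 264 and 39.7 FPKM and wild-type means of 257 and 40.8 FPKM. Of the tissue-restricted relatives Rpl3l, Rpl10l and Rpl39l, Rpl3l was the one found in this muscle.

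The proteins of the stalk recruit the elongation factors to the large subunit. Rplp0 was at 482, 406 and 398 FPKM across the knockout libraries and 429, 423 and 427 FPKM across those of wild type, a log2 fold change of -0.06 (SE 0.11). Rplp1 was at 399 ± 18.0 against 409 ± 27.99 FPKM and Rplp2 at 274 ± 17.9 against 261 ± 13.8 FPKM (SD, n = 3 each). Rpl12, at the base of the stalk, had the second most negative value of the members: 157, 158 and 172 FPKM for knockout and 172, 180.1 and 164 FPKM for wild-type libraries. Its log2 fold change was -0.14 (SE 0.14, edgeR unadjusted p = 0.325, adjusted p = 0.994), and the groups overlapped. Of the 4 stalk genes 1 was above and 3 below 0, with 0 called.

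Rpl5 and Rpl11 bind the 5S rRNA and, with Rpl23, restrain Mdm2 when ribosome assembly fails. Rpl11 was at 177, 155 and 168 in knockout libraries 1 to 3 and 158, 162 and 146 FPKM in wild-type libraries 1 to 3, and Rpl23 at 41.0, 32.3 and 38.2 against 36.3, 31.2 and 35.6 FPKM. All 3 log2 fold changes were above 0, at 0.09 for Rpl5, 0.03 for Rpl11 and 0.05 for Rpl23, each smaller than its standard error of 0.13, 0.10 and 0.11. None of the 3 was called.

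Around the opening of the peptide exit tunnel, where chaperones and the signal recognition particle meet the growing chain, 3 of 6 members were above 0 and 3 below, with 0 called. Rpl39, a small protein that lines the tunnel, was at 44.0, 38.5 and 36.6 FPKM across the knockout libraries and 40.7, 41.1 and 40.5 FPKM across those of wild type (log2 fold change of -0.11 with an SE of 0.10). Rpl31, on the rim, was at 46.1, 47.0 and 43.3 FPKM against 41.3, 43.4 and 38.6 FPKM, which is a log2 fold change of 0.08 with an SE of 0.12. For Rpl39 and Rpl31 the libraries of the groups overlapped. Rpl23a, a docking site for nascent-chain factors, had means of 325 and 295 FPKM, Rpl26 168 and 154, Rpl35 234 and 224, and Rpl19 182 and 177, knockout first. As given above, Rpl23a and Rpl26 had separate groups in FPKM, higher in the knockout, but not in TMM-scaled log2 CPM.

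On the small subunit, the genes of the mRNA entry channel and decoding centre (Rps2, Rps3, Rps15 and Rps23) had TMM-scaled log2 fold changes from -0.06 to -0.04, with 0 of 4 called. Their mean levels in the knockout and wild type were 598 and 589 FPKM for Rps2, 76.7 and 75.2 for Rps3, 339 and 333 for Rps15, and 187 and 187 for Rps23. These FPKM are not scaled by TMM. With library totals in place of TMM factors the log2 fold change of Rps2 was above 0, at 0.02. Rps21 and Rps12 were among the members with the smallest p below 0. Rps21 was at 121, 122 and 126 FPKM for knockout and 119, 141 and 129 FPKM for wild-type libraries (log2 fold change of -0.13 with an SE of 0.14), and Rps12 was at 158, 133 and 147 against 153, 143 and 151 FPKM, which is a log2 fold change of -0.10 with an SE of 0.10. For Rps21 the wild-type values reached below and above the knockout range, and for Rps12 all 3 wild-type values lay inside it. Rps24, needed for 18S rRNA maturation, was among the smallest p above 0 at 282, 255 and 265 in knockout libraries 1 to 3 and 253, 238 and 237 FPKM in wild-type libraries 1 to 3 (log2 fold change of 0.07 with an SE of 0.10).

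Genes whose loss of 1 copy is known to cause Diamond-Blackfan anaemia in people gave 7 of 10 above 0 and 3 below, with 0 called and log2 fold changes from -0.10 for Rps26 to 0.09 for Rpl5. Rps19, the gene most often affected, was at 76.7, 60.4 and 63.0 FPKM across the knockout libraries and 67.5, 65.0 and 59.7 FPKM across those of wild type. Rps26, which contacts the mRNA near the exit site, was at 333 ± 20.7 and 342 ± 19.2 FPKM (SD, n = 3 each, knockout first). Rps7 was at 99.4 and 94.5, Rps10 at 159.7 and 152, and Rpl35a at 116 and 106 FPKM on average. The median of these 10 genes was 0.02, beside -0.03 for all members and 0.00 for all genes tested.

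Other members have relatives that are expressed beside them. Rps27 and Rps27l encode nearly identical zinc-binding proteins of the small subunit, and Rps27l is a target of p53. Rps27 was at 306, 279 and 322 FPKM for knockout and 272, 314 and 257 FPKM for wild-type libraries, and Rps27l at 49.3, 48.3 and 58.2 against 52.0, 57.7 and 51.1 FPKM. The ratio of Rps27 to Rps27l was 6.21, 5.78 and 5.54 in the knockout and 5.24, 5.44 and 5.03 in wild type. The groups did not overlap in this ratio, but neither gene alone had separate groups. The ratio was one of 5 beside that of Rpl3 and was given no test. With 3 against 3 libraries the exact permutation test cannot go below 0.1 even for separate groups. Rps27 shares 46.2% of its 50-base stretches with other genes, among them Rps27rt, listed at 4.33, 1.95 and 1.96 in knockout libraries 1 to 3 and 7.97, 7.52 and 1.94 FPKM in wild-type libraries 1 to 3. The part of such shared reads in the ratio was not tested.

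Rpl22, which binds viral and cellular RNAs besides its place in the ribosome, was at 25.95, 25.99 and 24.6 FPKM across the knockout libraries and 23.9, 25.8 and 25.8 FPKM across those of wild type. Its relative Rpl22l1 averaged 21.98 and 20.4 FPKM, knockout first, and their ratio ran from 1.08 to 1.32 in the knockout and from 1.204 to 1.27 in wild type. Rpl7 exceeded Rpl7l1 by 14.2-fold, 17.2-fold and 18.1-fold in the knockout and by 13.8-fold, 15.7-fold and 14.6-fold in wild type. Rpl36a was below Rpl36al in every library, at ratios of 0.75 to 0.90 in the knockout and 0.74 to 0.95 in wild type. These 3 ratios overlapped between the groups. An elongation factor pair, the general Eef1a1 and the muscle and neuron form Eef1a2, had ratios of 0.179, 0.112 and 0.107 in the knockout and 0.133, 0.0916 and 0.0994 in wild type. Knockout library 1 was again the highest of the 6, and Eef1a2 exceeded Eef1a1 in each of them.

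**Figure D4:**
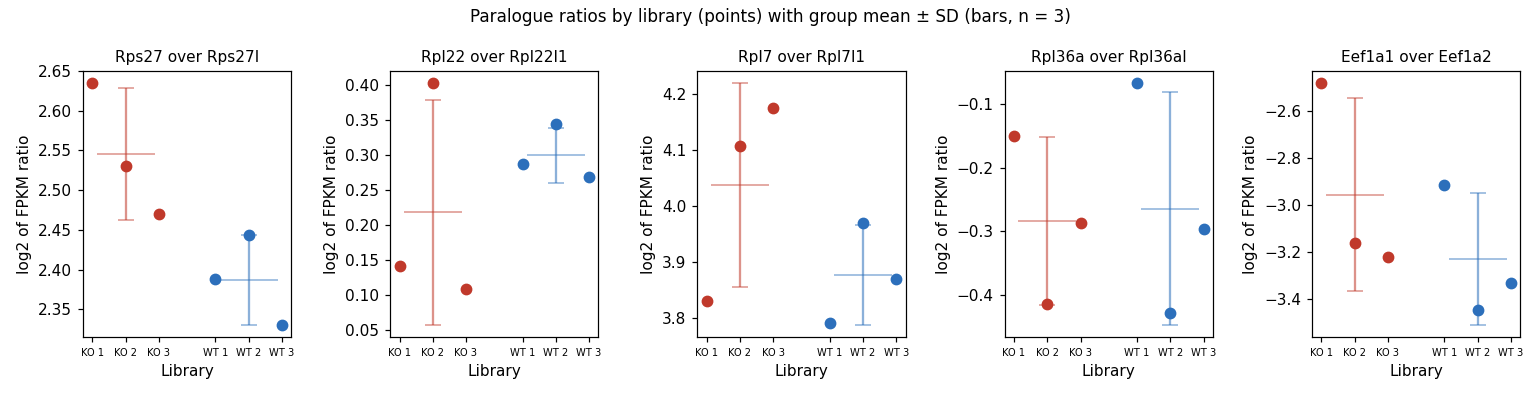
Log2 of the FPKM ratio of 5 pairs of related genes in each library, with a separate vertical scale per panel; red is knockout, blue wild type, and bars with whiskers are group means and SD (n = 3). The groups are apart for Rps27 over Rps27l and overlap for the other 4 pairs, and knockout library 1 is highest for Eef1a1 over Eef1a2. None of these ratios was tested.

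Most members shifted together in single libraries. After TMM scaling, 76 of 78 were below their own mean of 6 libraries in knockout library 1, with a median of -0.16 on the log2 scale; the exceptions were Rpl3 at 0.41 and Rps6 at 0.21. In wild-type library 1, 71 of 78 were below their mean, with a median of -0.09. Knockout library 3 and wild-type library 2 were the highest, at medians of 0.10 and 0.09. With library totals only, knockout library 1 turned to the other side, at a median of 0.09 with 66 of 78 above the mean, while the median of all genes tested was 0.26 there. Its TMM factor was 1.19, beside 0.933 to 1.04 for the others. Thus the members of this library were high per count sequenced and low relative to the bulk of its genes, and the sign of its shift is set by which scale is used.

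**Figure D5:**
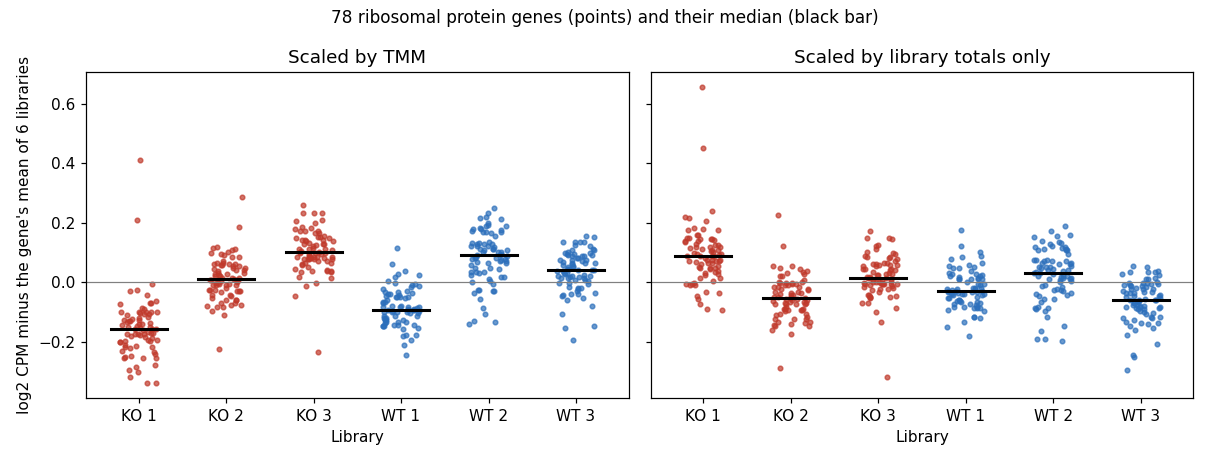
Log2 CPM minus the gene's mean over 6 libraries for each of the 78 tested ribosomal protein genes (points; black bars are medians), scaled by TMM (left) and by library totals only (right). Knockout library 1 has a median of -0.16 in the left panel and 0.09 in the right one, and its highest point in each panel is Rpl3.

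As a share of all FPKM the members took 3.22%, 2.87% and 3.0% across the knockout libraries and 2.95%, 2.97% and 2.83% in wild type, or 3.03% ± 0.18 against 2.92% ± 0.07 (SD, n = 3 each). As a share of expected counts they took 1.09%, 0.984% and 1.03% against 1.02%, 1.04% and 0.989%. The groups overlapped on both measures, and the difference of 0.11 percentage points in FPKM share was 0.02 points without knockout library 1. The Rpl3l transcript alone was at 358.8 FPKM on average, so the muscle form is part of these shares.

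Position and sequence come from the annotation and do not depend on the measured levels. The 80 annotated members lie on 19 chromosomes, with 14 on chromosome 7. Of them 29 contain 1 or more snoRNA genes, small RNAs that guide rRNA modification and are mostly released from introns, which is 36.2% beside 1.41% of the 18536 listed genes with an annotation. These genes hold 56 snoRNAs in all, 5 of them in Rpl4 and 4 in Rpl13a. An annotated antisense gene overlaps 21 members, and where counting ignored strand their reads may be mixed.

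Promoter windows of 61 of the 81 members were matched in RefSeq (GRCm38.p6). A run of 8 or more C or T on the gene's strand, of the kind that marks TOP mRNAs, was found within 10 bases either side of the annotated start in 21 of 61 members, 34.4%, beside 9.81% of 10139 tested genes and 8.71% of all 27025 genes in the table. The 60 bases from 40 before to 20 after the start are shown for the highest-level members with such a run and for Rpl3l. Most matched members had no such run, among them Rpl3l, Rps2 and Rplp0. The other starts shown were thus picked for the run, which capitals mark, and do not stand for all members.
Rpl28, chr7:4792925-4792984, plus strand: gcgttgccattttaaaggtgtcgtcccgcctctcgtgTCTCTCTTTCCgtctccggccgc
Rps27, chr3:90213629-90213688, minus strand: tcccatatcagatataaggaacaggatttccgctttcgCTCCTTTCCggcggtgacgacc
Rplp2, chr7:141447611-141447670, plus strand: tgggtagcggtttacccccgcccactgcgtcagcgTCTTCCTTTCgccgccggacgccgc
Rpl3l, chr17:24727786-24727845, plus strand: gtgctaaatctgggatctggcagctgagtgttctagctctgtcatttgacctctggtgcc
A window without a match says only that these letters are missing near that annotated start.

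In the wider translation machinery 0 genes were called by edgeR in each of 4 lists, in the fit over all genes. Among 9 elongation genes 4 were above and 5 below 0, and Eef1d, a subunit of the exchange factor for Eef1a, came closest at a log2 fold change of -0.10 (SE 0.09). Among 34 initiation genes 17 were above and 17 below. Eif3a, the scaffold of the factor that loads the small subunit onto mRNA, was at 38.2, 33.3 and 30.6 FPKM for knockout and 26.5, 23.2 and 28.02 FPKM for wild-type libraries, with all 3 knockout libraries higher. Its log2 fold change was 0.32 (SE 0.12, edgeR unadjusted p = 0.0251, adjusted p = 0.994), so it failed the correction. In TMM-scaled log2 CPM 1 of the 34 initiation genes had separate groups with the knockout higher and 1 with it lower, Eif2b4. Over all genes tested these shares were 4.67% and 4.51%. Among the 9 elongation genes 1 had separate groups, Eef1d, with the knockout lower.

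Of 16 genes that act on TOP mRNAs or in the mTOR arm, 11 were above and 5 below 0; Mlst8, a subunit of the mTOR complexes, had the smallest unadjusted p (0.0695 by edgeR, adjusted p = 0.994) at a log2 fold change of -0.27 with an SE of 0.13. Of 48 genes of ribosome biogenesis and the nucleolus, 14 were above and 34 below, with a median of -0.05. Over all genes tested 6530 were above and 6244 below 0. The splits of these lists are given for TMM scaling only, and that of the members turned with the scaling. The 1 gene of the biogenesis list with an unadjusted p under 0.05 by edgeR was below 0, was not called and is not reported by name here. Ncl, the nucleolar protein nucleolin, was at 26.5, 23.1 and 23.7 in knockout libraries 1 to 3 and 20, 19.6 and 20.7 FPKM in wild-type libraries 1 to 3, a log2 fold change of 0.21 (SE 0.10, edgeR unadjusted p = 0.0771, adjusted p = 0.994). Polr1b, the second largest subunit of RNA polymerase I, had a log2 fold change of -0.24 (SE 0.14). Ribosomal proteins outside the symbol rule were not called either: Fau was at 117 ± 6.40 and 122 ± 11.3 FPKM, and Rack1 at 187 ± 2.40 and 188 ± 16.5 (SD, n = 3 each, knockout first).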

How the data were processed

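RNA was measured by sequencing on a BGISEQ-500 instrument, per the labels. The labels' protocol text speaks of cultured muscle cells, but the tissue label gives muscle and was followed. Knockout libraries 2 and 3 carry source labels with other Tmem numbers, and their genotype field was followed. The submitters' processing notes list HISAT2 2.0.4, RSEM 1.2.12, Bowtie2 2.2.5 and the GRCm38 build; annotation and strand handling were not given in the sources used here. The authors deposited 1 table per library with expected counts, not normalized, and FPKM, scaled by the authors for transcript length and library size.

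Expected counts were rounded (by at most 0.5), filtered with filterByExpr (minimum count 10) and scaled by TMM. The groups were compared by the quasi-likelihood test of edgeR 4.0.16 in R 4.3.3 (two-sided), and p-values were adjusted by Benjamini-Hochberg over 12774 genes at 0.05. Levels are deposited FPKM; CPM used a prior count of 2. The Rpl3 ratio was tested by exact permutation (scipy 1.17.1). Alternatives were DESeq2 size factors, library totals, DESeq2 1.42.0, no filter, limma 3.58.1 on log2(FPKM + 1), voom weights for library quality, a replicate block and each library left out.

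The members and gene lists were chosen with earlier results of these data known. Named genes were Rpl3, Rpl3l, the 5 smallest p per direction, the 3 highest and 3 lowest levels, the 3 largest SDs, the related pairs and functional groups described, and up to 3 genes per other list; not every gene so chosen is reported here. Rpl4, Rpl13a and Rpl28 were named for sequence features after these were seen, and Rpsa and Rpl6 for a small SD. Positions and shared 50-base stretches come from GENCODE M21. Libraries differed by more than counting noise (chi-square per degree of freedom at least 13.6). The test was tested on data simulated for this comparison over the same 12774 genes. On average over 3 simulations it found 61.3% of genes changed 2-fold and 91% of genes changed 4-fold. It made a mean of 10 false calls per simulation.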

Additional observations from a re-analysis of the deposited data

How the results depend on the processing

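No ribosomal protein gene was called under any of the 8 fits or with any of the 6 libraries left out, and the 4 other lists gave 0 calls throughout. Genes called over all genes numbered 1 by edgeR, 6 by DESeq2, and 0 to 1 with a library left out, the 0 being without knockout library 2 or wild-type library 3. The median log2 fold change of the members ran from -0.08 to 0.05 with a library left out. The difference in log2 Rpl3 ratio ran from 0.09, without knockout library 1, to 0.46, and that in FPKM share from 0.02 to 0.19 points.

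Some signs turned with the scaling, with quality weights or with a library left out. Rpl3, at 0.171 in the main fit, turned with quality weights and without knockout library 1, and was at 0.262 with library totals. With library totals Rps2 was at 0.0229, Rplp0 at 0.00661, Rpl10 at 0.0435, Rpl22 at 0.0215, Rpl36al at 0.00834 and Rps4x at 0.0295. With limma on log2(FPKM + 1) the values were 0.0135 for Rps2, 0.00153 for Rplp0, 0.0504 for Rpl10, 0.0197 for Rpl22, 0.0136 for Rpl36al and 0.0307 for Rps4x. With quality weights they were -0.00704 for Rpl3, 0.121 for Rpl10, 0.016 for Rpl22, 0.0352 for Rpl36al and 0.0363 for Rps4x. The cause was not tested. With a library left out the ranges that crossed 0 were -0.0182 to 0.306 for Rpl3, -0.257 to 0.0305 for Rps27l, -0.113 to 0.105 for Rpl10, -0.123 to 0.045 for Rpl22, -0.184 to 0.0705 for Rpl36al, -0.124 to 0.0835 for Rps4x, -0.0877 to 0.179 for Rps20, -0.0182 to 0.123 for Rps15a, -0.0673 to 0.148 for Rps27, -0.0529 to 0.117 for Rpl22l1 and -0.0144 to 0.148 for Rpl7. Rpl3, Rps27l and Rps4x crossed without knockout library 1. Rpl7 crossed without knockout library 3, and Rps20, Rps15a, Rps27 and Rpl22l1 did so without that library or wild-type library 1. Rpl10 crossed without knockout library 1 or wild-type library 2, Rpl22 without knockout library 1 or wild-type library 3, and Rpl36al without any of those 3.

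Libraries with equal numbers correlated at 0.52, 0.18 and -0.12 in their deviations from the group means, so the numbers are not taken as pairs; knockout libraries 1 and 2 correlated best with their own number and knockout library 3 with wild-type library 2. With the number as a replicate block edgeR called 1 gene and 0 members, the member median was -0.03, and the Rpl3 ratio gave an exact sign-flip p of 0.5. With 3 libraries a group the members' intervals had a median half-width of 0.27 on the log2 scale; a rise of 0.3 lay inside the intervals of 22 of 78 members and a fall of 0.3 inside those of 37.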
